A study of Mus musculus with 24 samples.

Results

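The DNA replication machinery was followed as 40 genes in lungs of control and Cre-driven Sin3a conditional knockout mice. Sin3a encodes a protein that holds together a corepressor complex with histone deacetylases. Lungs were taken at 3 stages, on day 16 of gestation (E16), at birth (P0) and 3 days later (P3). The genes were taken by symbol from the deposited count table, where each of the 40 symbols occurred 1 time among 51912 genes, and all 40 passed the filter on low counts in every comparison. They comprise 10 genes of origin licensing (Orc1, Orc6, Cdc6, Cdt1 and Mcm2 to Mcm7), 6 of helicase activation (Mcm10, Cdc45 and Gins1 to Gins4), 15 that encode polymerase subunits, the sliding clamp, its loader and the single-strand binding protein (Pola1, Pola2, Prim1, Prim2, Pold1, Pole, Pole2, Pcna, Rfc1 to Rfc5, Rpa1 and Rpa2), 5 for fragment joining and copying of chromatin (Fen1, Lig1, Chaf1a, Chaf1b and Uhrf1) and 4 for the supply of deoxynucleotides (Rrm1, Rrm2, Tyms and Tk1).

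RNA came from whole lungs, with 4 control and 4 conditional knockout (CKO) libraries at each of the 3 stages, 24 in all, which the labels call biological replicates. By title, controls were Tbx4rtta, tetocre, Sin3a F/+ at E16 and P0 and Tbx4rtta, tetocre, Sin3a F/F at P3, and CKO lungs were Tbx4rtta, tetocre, Sin3a F/F throughout. By title controls thus carried both transgenes and a floxed Sin3a allele, as CKO lungs did, and loss of a copy in controls was not tested. P3 controls share the title genotype of P3 CKO lungs, so the P3 groups rest on the words control and CKO. Doxycycline fed to the dams from E12 turned on Cre in cells that make the Tbx4-driven transactivator, a driver known for lung mesenchyme, while whole-lung RNA also holds epithelial, endothelial and blood cells. The labels speak of libraries made at each stage, so stage and library preparation cannot be told apart.

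Before a cell can copy its DNA, the origin recognition complex, Cdc6 and Cdt1 load the MCM helicase onto origins in G1. At the start of S phase Mcm10, Cdc45 and the GINS complex turn that ring into an active helicase, polymerase alpha and primase lay down primers, and polymerases delta and epsilon extend them on the Pcna clamp. The genes are classic targets of E2F transcription factors, which are held back by retinoblastoma proteins in resting cells, so their summed transcripts in a tissue are widely used as a sign of cycling cells. In the lung, cells of the mesenchyme, epithelium and vessels divide rapidly before birth and again during formation of alveoli.

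Totals ran from 27018125 to 36347041 counts per library, and values below are CPM (counts relative to the library total, on the usual CPM scale) after TMM scaling (trimmed mean of M values) of library sizes. Sin3a itself stood at 125 to 142 CPM in E16 controls and 105 to 144 in E16 CKO lungs, 86.3 to 105 and 86.9 to 114 at P0, and 88.1 to 102 and 99.7 to 107 at P3, so its gene-level count did not part the genotypes. All 10 epithelial, 9 mesenchymal and 7 endothelial markers of lung reached 1 CPM in at least 1 library. Some libraries stood apart. P0 control replicate 3 and P0 CKO replicate 1 had 2247 and 1727 CPM summed over 14 thymocyte markers, against 14.8 to 46.1 in all others. P0 CKO replicate 3 had 374 CPM over 11 cartilage markers, against 11.9 to 148 elsewhere, and 231 CPM over 11 neuronal markers, against 36.3 to 111. E16 CKO replicate 3 had 16099 CPM over 12 erythroid markers, against 5875 to 9201 in the other E16 libraries. For results that rest on P0, values without both libraries high in thymocyte markers, which share an identifier prefix in the labels, are given as well.

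E2F factors are known to bind short sequence words in many replication gene promoters, and stretches of 100 bases from 7 promoters are shown because the 40 genes moved together between stages. RefSeq (GRCm38.p6) gave a promoter of 300 bases, 250 before and 50 after the annotated start, for 33 of the 40 genes, and no entry was used for Mcm4, Gins1, Gins2, Gins4, Rfc2, Prim2 and Pole. The words TTTCCCGC, TTTCGCGC, TTTGCCGC and TTTGGCGC were searched on both strands, and capitals mark them below. TTTCGCGC and TTTGGCGC can overlap head to head, as they do in Mcm5 and Mcm6.
Mcm5, chr8:75109336-75109435, plus strand: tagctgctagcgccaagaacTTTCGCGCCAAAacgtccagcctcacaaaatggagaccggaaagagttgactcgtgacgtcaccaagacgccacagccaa
Mcm6, chr1:128359736-128359835, minus strand: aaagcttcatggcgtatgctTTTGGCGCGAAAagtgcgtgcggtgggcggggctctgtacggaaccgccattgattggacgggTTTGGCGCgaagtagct
Orc1, chr4:108579354-108579453, plus strand: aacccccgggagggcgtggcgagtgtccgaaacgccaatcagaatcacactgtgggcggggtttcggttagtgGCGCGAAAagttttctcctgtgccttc
Cdc6, chr11:98907993-98908092, plus strand: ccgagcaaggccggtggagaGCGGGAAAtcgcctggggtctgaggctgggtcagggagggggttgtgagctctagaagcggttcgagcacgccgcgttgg
Gins3, chr8:95633459-95633558, plus strand: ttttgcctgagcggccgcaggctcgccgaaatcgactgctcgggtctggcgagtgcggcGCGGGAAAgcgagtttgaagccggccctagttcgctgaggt
Pola1, chrX:93632214-93632313, minus strand: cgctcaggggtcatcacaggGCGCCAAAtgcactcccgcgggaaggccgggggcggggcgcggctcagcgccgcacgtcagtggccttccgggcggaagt
Chaf1b, chr16:93883801-93883900, plus strand: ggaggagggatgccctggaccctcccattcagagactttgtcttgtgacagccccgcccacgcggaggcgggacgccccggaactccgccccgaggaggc

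Of the 33 genes, 14 (42.4%) held at least 1 of these words, namely Cdc6, Cdt1, Gins3, Lig1, Mcm3, Mcm5, Mcm6, Mcm7, Orc1, Pola1, Pold1, Pole2, Rfc3 and Uhrf1. Among all 27025 genes with a promoter entry the share was 2.60%, and 2.26% of all 32851 promoters held one. The CCAAT word, the box bound by NF-Y, was present in 21 of 33 genes (63.6%) and in 41.1% of all genes. The E-box CACGTG, a MYC and USF word, was present in 7 of 33 (21.2%) and in 8.09% of all genes, and the NRF1 core motif in 0 of 33 and in 1.07%. Chaf1b, whose window is shown for contrast, held none of the E2F words. Such matches describe letters and show no binding.

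Per kilobase of exon, which allows genes to be compared, Pcna had the highest level of the 40 in each of the 6 groups and Orc1 the lowest. In E16 controls Pcna stood at 95.3 CPM per kilobase, followed by Mcm4 at 59.1, with a median over the 40 genes of 15.0 and Orc1 at 3.52. In P0 controls the same measure was 48.5 for Pcna, 6.22 for the median and 1.23 for Orc1, and in P3 controls 71.9, 9.18 and 1.95. CKO lungs had medians of 16.0, 6.38 and 9.69 CPM per kilobase at E16, P0 and P3. The table also holds Pcna-ps1 and Pcna-ps2, processed copies of Pcna, and the division of reads between Pcna and these copies is uncertain.

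**Figure D1:**
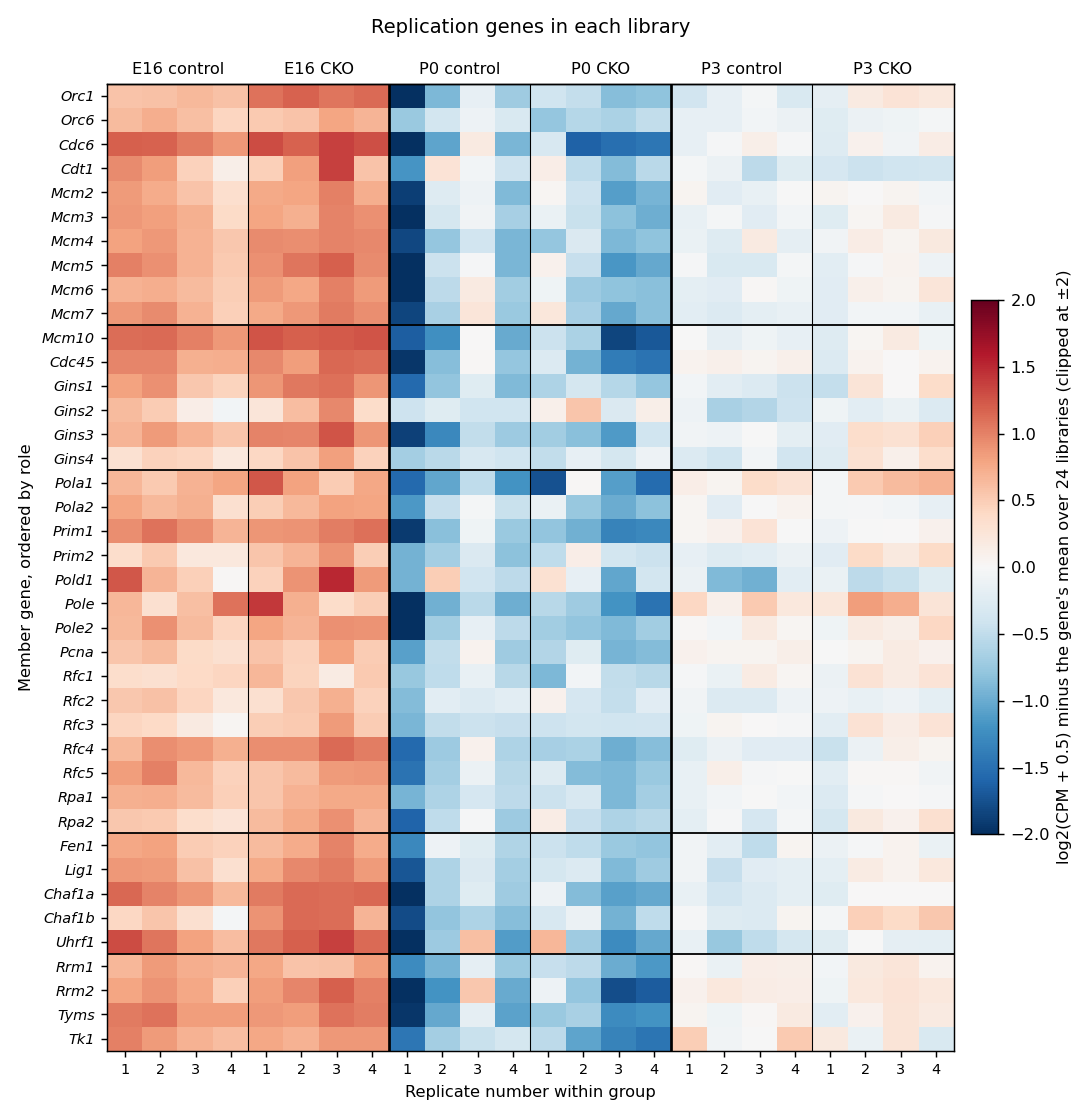
Each square is 1 of the 40 replication genes (vertical axis, ordered by role) in 1 of the 24 libraries (horizontal axis, grouped by stage and genotype), coloured by log2(CPM + 0.5) minus that gene's mean over all libraries and clipped at 2 on either side. E16 libraries are above the mean for nearly every gene, P0 libraries are mostly below it with control replicate 1 the lowest, and P3 libraries lie between.

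All 40 replication genes fell between E16 and P0 in control lungs, whatever their role. Every member passed as lower in edgeR's quasi-likelihood test (p adjusted by Benjamini-Hochberg over all genes), against 22.3% of the 18415 genes tested. The median log2 fold change of the 40 was -1.38, a 2.60-fold lower level, where the median over all genes tested was 0.05. In 37 of the 40 the P0 controls lay wholly below the E16 controls, against 20.9% of all genes, the exceptions being Cdt1, Pold1 and Rrm2. In bulk lung, fewer replicating cells and less RNA per cell cannot be told apart.

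The 10 licensing genes had a median change of -1.34 and all passed as lower. The 6 MCM subunits, which form the ring of the replicative helicase, had mean levels of 121 (Mcm2) to 237 CPM (Mcm6) in E16 controls and of 50.04 (Mcm2) to 101 CPM (Mcm6) in P0 controls. Their changes lay close together, from -1.62 ± 0.20 (SE) for Mcm4 to -1.23 ± 0.29 for Mcm6. The loading factors were more spread. Cdc6, the ATPase that brings the ring to origins, fell by 1.89 ± 0.36 on the log2 scale, from 47.4 ± 4.9 to 12.7 ± 9.1 CPM (mean ± SD, n = 4). Orc1, the regulated subunit of the origin recognition complex, fell by 1.51 ± 0.27, while Orc6 fell by 0.97 ± 0.12 and Cdt1 by 0.91 ± 0.27.

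Helicase activation held 1 of the deepest falls and the shallowest one, around a median of -1.59. Mcm10, which helps to start the loaded helicase, had 51.8, 52.4, 48.1 and 43.7 CPM in the 4 E16 controls and 7.24, 9.91, 23.8 and 11.5 CPM in the 4 P0 controls. The highest P0 value, that of replicate 3, was still well below the lowest E16 value. The change was -1.90 ± 0.30, a 3.72-fold lower level (adjusted p = 2.43e-05, edgeR). Gins2, also called Psf2, a subunit of the GINS complex, had 92.5, 84.9, 65.6 and 57.4 CPM at E16 and 44.4, 50.1, 45.2 and 45.1 CPM at P0. These groups did not overlap, but the fall was the smallest of the 40 at -0.70 ± 0.18 (adjusted p = 0.00254, edgeR). Of the exon length of Gins2, 67.3% is overlapped on the other strand by Gse1, and the strand setting of the counting is not given in the sources used here, so its level is uncertain. Its partners Gins1 and Gins3 fell by 1.56 ± 0.22 and 1.78 ± 0.23, Cdc45 by 1.61 ± 0.29 and Gins4 by 0.85 ± 0.14.

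All 15 polymerase, clamp and clamp loader genes passed as lower, with a median of -1.12. The large subunits of polymerases epsilon and alpha, Pole and Pola1, fell by 1.80 ± 0.32 and 1.72 ± 0.29, and Prim1, the catalytic primase subunit, by 1.70 ± 0.23. The clamp gene Pcna fell by 0.97 ± 0.18, from 229 ± 22.7 to 116 ± 40.7 CPM. Rfc2, a small subunit of the clamp loader, had 72.0, 74.3, 66.6 and 57.3 CPM at E16 and 26.9, 42.7, 40.6 and 42.8 CPM at P0. The groups did not overlap, and the change of -0.82 ± 0.14 was the smallest after that of Gins2 (adjusted p = 6.24e-05, edgeR). Lat2 overlaps 15.1% of the exon length of Rfc2 on the other strand.

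Fragment joining and chromatin genes fell by 1.15 ± 0.18 (Fen1, the flap endonuclease) to 1.73 ± 0.27 (Chaf1a, the large subunit of chromatin assembly factor 1), with the DNA ligase gene Lig1 at -1.42 ± 0.21, the chromatin assembly gene Chaf1b at -1.30 ± 0.21 and Uhrf1, which recruits the maintenance methyltransferase to copied DNA, at -1.51 ± 0.44. Antisense neighbours overlap 84.2% of the exon length of Fen1 (Gm10143 and Tmem258) and 52.5% of that of Chaf1a (Ubxn6). Among nucleotide supply genes Tyms, thymidylate synthase, showed the largest fall of the 40. It had 79.9, 82.2, 69.1 and 69.4 CPM at E16 and 9.60, 18.8, 34.0 and 18 CPM at P0. The groups did not overlap, and the change was -1.90 ± 0.24, a 3.73-fold lower level (adjusted p = 1.54e-06, edgeR). Rrm1 and Rrm2, the subunits of ribonucleotide reductase, and the thymidine kinase gene Tk1 fell by 1.46 ± 0.18, 1.36 ± 0.39 and 1.49 ± 0.22.

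In CKO lungs, whose libraries are separate from those of controls, 39 of the 40 genes passed as lower from E16 to P0, against 20.6% of all genes. In 39 the groups did not overlap, against 16.7%. The median log2 change was -1.45. Cdc6 had the largest fall, with 55.5, 51.0, 58.0 and 55.1 CPM in E16 CKO lungs and 17.7, 6.94, 7.48 and 7.90 CPM in P0 CKO lungs. All E16 values stood far above all P0 values, and the change was -2.46 ± 0.37 (adjusted p = 1.41e-05, edgeR). The gene that did not pass was Gins2, with 70.5, 91.9, 116 and 77.2 CPM at E16 and 64.1, 87.8, 48.9 and 64.3 CPM at P0. Its groups overlapped, and the change was -0.42 ± 0.18 (adjusted p = 0.0537, edgeR). With DESeq2, limma-voom or library size as the only scaling all 40 genes passed. Over the whole table DESeq2 and limma-voom called 8745 and 8153 genes in either direction for this contrast, against 8352 with edgeR. No such count is set beside the fit with library size.

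**Figure D2:**
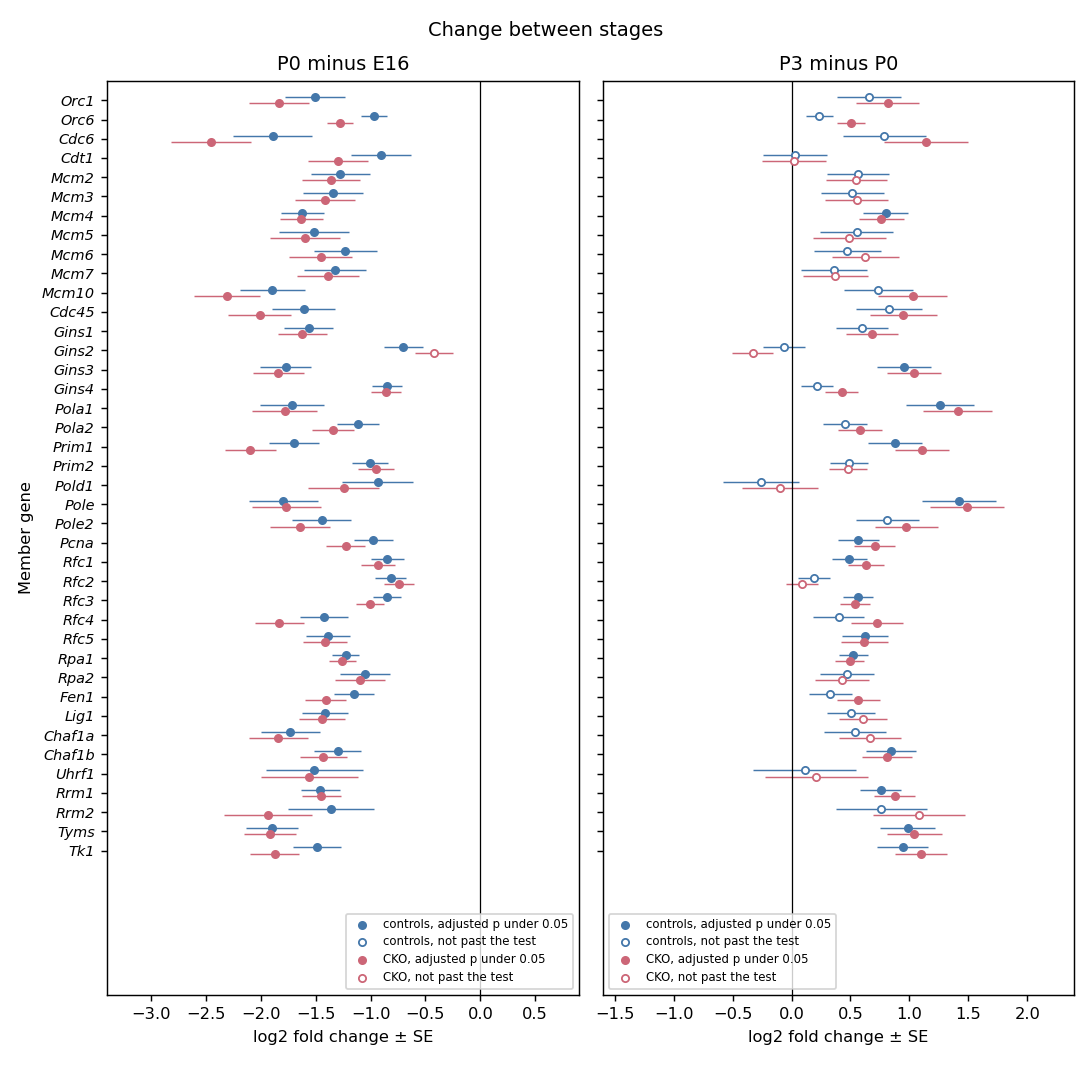
Log2 fold changes with standard errors (horizontal axes) of the 40 replication genes (vertical axis) from E16 to P0 on the left and from P0 to P3 on the right, in controls (blue) and CKO lungs (red), with filled points for adjusted p under 0.05. All points on the left lie below 0 and all but Gins2 in CKO lungs are filled, while on the right most points lie above 0 and those of Pole and Pola1 are the highest.

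Marker sums of other cell types also differed between E16 and P0. In controls the 10 lung epithelial markers summed to 4037 to 5619 CPM at E16 and 11436 to 18731 at P0, the 7 endothelial markers to 1531 to 1731 and 2097 to 3670, the 9 mesenchymal markers to 3211 to 4421 and 2818 to 4410, and the 12 erythroid markers to 5875 to 8932 and 13654 to 34077 CPM. Neutrophil markers (9 genes, of which Elane stayed below 1 CPM in every library) summed to 9.45 to 14.8 CPM at E16 and 217 to 246 at P0. Most of the epithelial sum was Sftpc, at 2615 to 3819 CPM at E16 and 7316 to 11142 at P0 in controls. In the same list Sftpb stood at 254 to 316 and 631 to 1694 CPM, and Nkx2-1 at 212 to 246 and 125 to 185. A sum thus does not give the share of a cell type. The part of these marker shifts in the falls was not tested. Without both libraries high in thymocyte markers the E16 to P0 median was -1.62 in controls and -1.598 in CKO lungs, with 40 and 39 genes passing as lower. No share over all genes of that fit is set beside these counts. By role the medians in controls were then -1.69 for licensing, -1.92 for helicase activation, -1.32 for polymerases and clamp, -1.60 for joining and chromatin and -1.92 for nucleotide supply. Cdc6 then had the largest fall in controls, at -2.47 ± 0.26, ahead of Mcm10 at -2.36 ± 0.23 and Tyms at -2.28 ± 0.20, while Gins2 (-0.69 ± 0.20) and Rfc2 (-0.85 ± 0.14) still had the smallest. In CKO lungs Cdc6 was at -2.88 and Gins2 at -0.41.

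From P0 to P3 most of the 40 genes had positive changes, though fewer passed. In controls 38 of 40 were positive with a median of 0.56, a 1.47-fold higher level, and 14 passed as higher, against 4.97% of all genes. Those 14 were Mcm4, Gins3, Pola1, Prim1, Pole, Pcna, Rfc1, Rfc3, Rfc5, Rpa1, Chaf1b, Rrm1, Tyms and Tk1. The groups did not overlap, with P3 higher, for 15 genes, against 8.99% of all genes, and the median over all genes tested was -0.03. This comparison uses the same P0 libraries as the one before, so a low P0 value enters both.

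Pole and Pola1 had the largest changes. Role medians were 0.53 for licensing, 0.67 for helicase activation, 0.52 for polymerases and clamp, 0.51 for joining and chromatin and 0.85 for nucleotide supply. Pole, the catalytic subunit of polymerase epsilon, had 11.1, 34.3, 46.4 and 34.0 CPM in P0 controls and 89.8, 72.2, 97.2 and 77.9 CPM in P3 controls. All P3 values exceeded all P0 values, and the change was 1.42 ± 0.31, a 2.68-fold higher level (adjusted p = 0.00787, edgeR). Pola1, the catalytic subunit of polymerase alpha, had 15.3, 22.1, 32.1 and 19.9 CPM at P0 and 50.8, 47.7, 59.4 and 56.7 CPM at P3. These groups did not overlap either, with a change of 1.26 ± 0.29 (adjusted p = 0.00998, edgeR). By role, 1 of 10 licensing, 1 of 6 helicase activation, 8 of 15 polymerase and clamp, 1 of 5 joining and chromatin and 3 of 4 nucleotide supply genes passed as higher. These counts were 9 of 10, 4 of 6, 13 of 15, 4 of 5 and 4 of 4 without both libraries high in thymocyte markers. Calls over the whole table rose in that fit as well, as given below, and no share called as higher is set beside these counts.

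Only Pold1 and Gins2 had negative changes among the 40 genes, and neither passed. Pold1, the catalytic subunit of polymerase delta, had 9.74, 27.1, 14.7 and 13.2 CPM in P0 controls and 17.8, 10.2, 9.64 and 16.6 CPM in P3 controls. The groups overlapped, at -0.26 ± 0.32 (adjusted p = 0.639, edgeR), and the sign turned without P0 control replicate 2, at 0.11. Gins2 had 44.4 to 50.1 CPM in P0 controls and 55.3, 37.9, 39.3 and 44.6 CPM in P3 controls. Its change was -0.06 ± 0.18 (adjusted p = 0.851, edgeR), and it was 0.0069 without P3 control replicate 2 and 0.0011 with library size as the only scaling.

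The count of genes that passed from P0 to P3 in controls depended on single libraries. It was 31 without P0 control replicate 3, where the count over all genes in either direction went from 2083 to 3386, 34 without both libraries high in thymocyte markers, where that count was 4064, and 9 without P3 control replicate 3, where it was 740. Without both libraries high in thymocyte markers Pole was at 1.67 ± 0.33, Pola1 at 1.49 ± 0.28, Pold1 at -0.30 ± 0.34 and Gins2 at -0.07 ± 0.20. Fitted on the 8 libraries compared alone, 2 genes passed at a median that moved little (0.56), and Pole lost its call there (adjusted p = 0.0536, edgeR). In CKO lungs 25 genes passed as higher, against 6.15% of all genes, 22 did not overlap, against 7.84%, and the median was 0.63. There the count was 31 without both libraries high in thymocyte markers, 10 in the fit of 8 libraries, 15 without P0 CKO replicate 3 or P3 CKO replicate 2, 3 or 4, and 16 without P0 CKO replicate 4. No share over all genes is set beside these counts or the 2 of the control fit of 8 libraries. They thus do not part the members from the whole table. Pole (1.49 ± 0.31) and Pola1 (1.41 ± 0.29) had the largest changes in CKO lungs too, and Pold1 (-0.09 ± 0.32) and Gins2 (-0.33 ± 0.18) the lowest. The sign of Pold1 turned in CKO lungs without both libraries high in thymocyte markers, at 0.15 ± 0.34.

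Most of the genes were still below their E16 level at P3. In controls 32 of 40 genes passed as lower from E16 to P3, against 21.1% of all genes, with a median of -0.77, and 37 did not overlap, against 25.1%. The 8 that did not pass were Pola1, Pole, Pole2, Pcna, Rfc1, Rfc3, Chaf1b and Rrm2. In CKO lungs 36 passed, against 18.8%, with a median of -0.82, and 37 did not overlap, against 20.5%, while Pola1, Pole, Rfc1 and Rrm2 did not pass. All licensing genes (10 of 10) and all helicase activation genes (6 of 6) passed as lower in both genotypes. The order of group means was E16, then P3, then P0 for 38 of 40 genes in each genotype, and E16, then P0, then P3 for Gins2 and Pold1. In CKO lungs the order of Pold1 became that of the 38 without P0 CKO replicate 1, a library high in thymocyte markers, and in controls without P0 control replicate 2, while Gins2 took it in controls without P3 control replicate 2. With other single libraries left out the count was 36 to 38 in controls and 37 or 38 in CKO lungs.

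**Figure D3:**
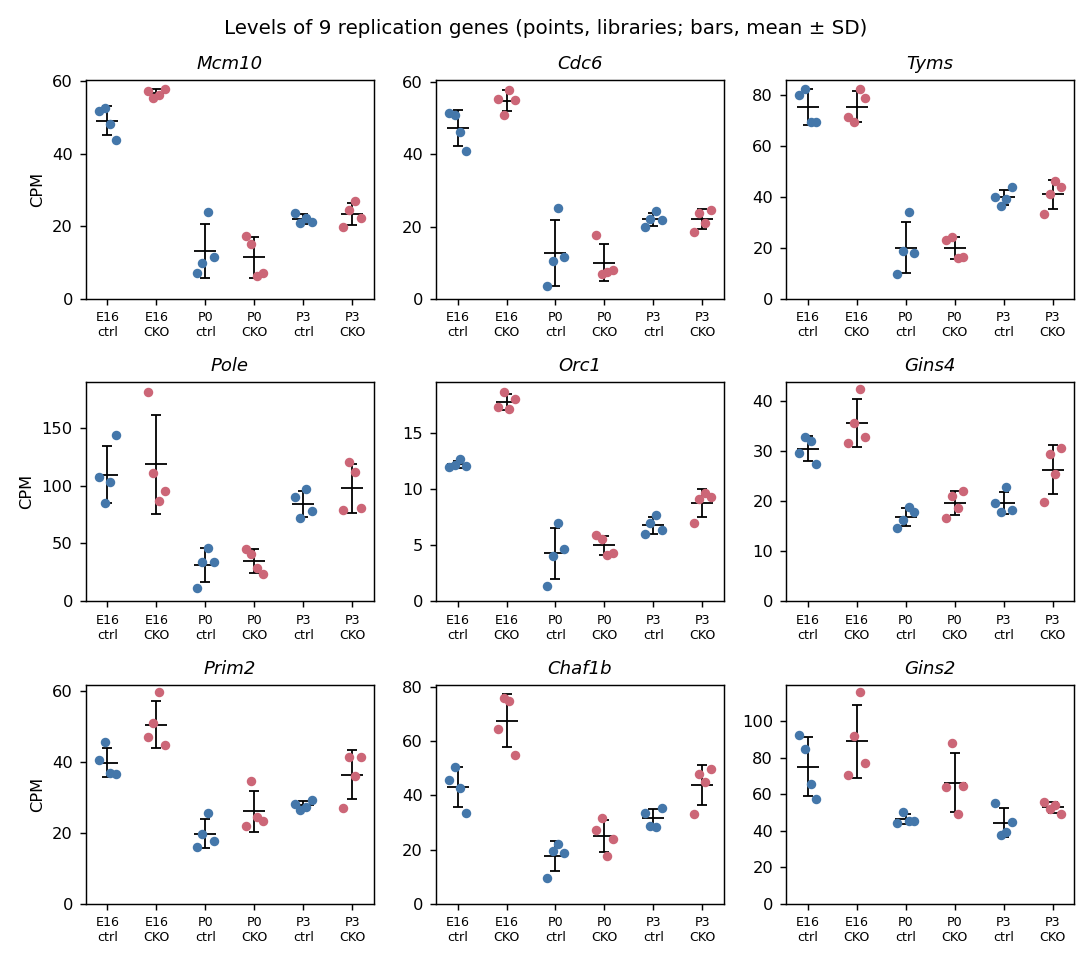
Levels in CPM (vertical axes) of 9 replication genes in every library, as points, with the mean and SD of each group of 4 as bars (blue, controls; red, CKO). For Mcm10, Cdc6 and Tyms all E16 points stand above all later ones, Pole at P3 comes near its E16 level, Orc1 shows no overlap between genotypes at E16, and the CKO means of Gins4, Prim2, Chaf1b and Gins2 lie above those of controls at each stage.

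The question the design puts to each stage is whether Sin3a CKO lungs differ from controls. At E16 none of the 40 genes passed edgeR's test, against 0.0181% of the 16606 genes tested, yet 38 of 40 had a positive log2 change, where 48.1% of all genes did, with a median of 0.21. At an unadjusted p under 0.05 there were 15 members, all higher, and 6.57% of all genes were higher at that level. DESeq2 called 3 members (Orc1, Chaf1b and Rpa2), all higher, where it called 1.68% of all genes as higher, and limma-voom called 0. The groups did not overlap, with CKO lungs higher, for 8 genes (Orc1, Mcm4, Mcm6, Mcm10, Gins3, Rfc3, Rpa2 and Chaf1b), against 3.53% of all genes.

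Orc1 had the smallest p at E16. It had 12, 12.1, 12.7 and 12.1 CPM in controls and 17.3, 18.7, 17.1 and 18.1 CPM in CKO lungs. The groups were tight and well apart, with a change of 0.55 ± 0.08 (adjusted p = 0.277, edgeR), and the DESeq2 adjusted p was 1.01e-06. Gm12743 overlaps 10.8% of the exon length of Orc1 on the other strand. Chaf1b, the middle subunit of chromatin assembly factor 1, had 45.8, 50.6, 42.8 and 33.3 CPM in controls and 64.5, 75.9, 74.9 and 55.0 CPM in CKO lungs. All CKO values exceeded all control values, at 0.66 ± 0.14 (adjusted p = 0.309, edgeR). Rpa2, a subunit of the single-strand binding protein, had 47.7, 47.1, 41.9 and 39.6 CPM in controls and 50.6, 55.6, 61.7 and 52.5 CPM in CKO lungs, again without overlap, at 0.34 ± 0.09 (adjusted p = 0.314, edgeR).

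By role the E16 medians were 0.23 for licensing (10 of 10 positive), 0.25 for helicase activation (6 of 6), 0.13 for polymerases and clamp (14 of 15), 0.23 for joining and chromatin (5 of 5) and 0.01 for nucleotide supply (3 of 4). The negative genes were Rrm1 (-0.03 ± 0.09) and Rfc5 (-0.0029 ± 0.12). Without CKO replicate 4, 2 of the genes passed at E16, among 188 in the whole table, Orc1 (adjusted p = 0.041, edgeR) and Chaf1b (adjusted p = 0.0461, edgeR). Leaving out any 1 of the 8 libraries, E16 CKO replicate 3 included, gave medians of 0.15 to 0.25 over the 40 genes. Xist, the marker of female tissue, was above 100 CPM in 1 control and in all 4 CKO lungs at E16, and sex thus moved with genotype. With Xist as a covariate the median was 0.38 and 0 genes passed, and the X-linked member Pola1 had 0.20 ± 0.16 in the fit without it. The control above 100 CPM was replicate 4 alone, which was the lowest control for 32 of the 40 genes. Among E16 controls sex and this library thus cannot be told apart, and with replicate 4 left out the median was 0.15.

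At P0 the genotype changes of the 40 genes lay on both sides of 0. None of 40 passed, against 0.0407% of 17198 genes, 21 of 40 were positive with a median of 0.03, where 46.7% of all genes were positive, and 1 had an unadjusted p under 0.05, against 3.46% of genes that were higher at that level. DESeq2 and limma-voom each called 0 members, and 190 and 10 genes of the whole table. The groups did not overlap for 1 gene, Rfc3, against 2.75% of all genes. Gins2, with the smallest p, had 44.4, 50.1, 45.2 and 45.1 CPM in controls and 64.1, 87.8, 48.9 and 64.3 CPM in CKO lungs. The values overlapped by a single pair of libraries, at 0.51 ± 0.18 (adjusted p = 0.616, edgeR).

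Chaf1b had 9.57, 19.6, 22.0 and 18.8 CPM in P0 controls and 27.2, 31.6, 17.6 and 23.8 CPM in P0 CKO lungs. The groups overlapped through CKO replicate 3, at 0.50 ± 0.28 (adjusted p = 0.874, edgeR). Prim2, the regulatory primase subunit, had 16.2, 19.7, 25.7 and 17.7 CPM in controls and 22.1, 34.7, 24.4 and 23.3 CPM in CKO lungs. It overlapped through control replicate 3, at 0.38 ± 0.22 (adjusted p = 0.874, edgeR). The 4 nucleotide supply genes were all negative, from -0.03 ± 0.34 for Tyms to -0.40 ± 0.29 for Tk1, the lowest of the 40. Without both libraries high in thymocyte markers 3 of these 4 were positive and Tk1 was at -0.54 ± 0.29, while Gins2 was at 0.52 ± 0.22, Chaf1b at 0.60 ± 0.32 and Prim2 at 0.61 ± 0.20, and 0 of 40 passed (lowest adjusted p = 0.436, edgeR).

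The spread between P0 libraries was wide for the whole set. The 40 genes summed to 816, 1544, 2226 and 1424 CPM in the 4 P0 controls and to 1967, 1734, 1235 and 1309 CPM in the 4 P0 CKO lungs. Control replicate 1 was the lowest of its group for all 40 genes, and control replicate 3 the highest for 34. Among CKO lungs replicate 1 was the highest for 23 genes and replicate 3, the library high in cartilage and neuronal markers, the lowest for 25. The 2 libraries highest in the sum were those high in thymocyte markers, and the lowest control had the smallest TMM factor of all libraries (0.891). Dividing thymocytes express these same genes, and the thymus part of the P0 values was not tested. Without both libraries the P0 median was 0.14 with 30 of 40 positive, and without control replicate 1 it was -0.20 with 8 of 40 positive, so its sign followed single libraries.

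The identifiers in the labels have a prefix whose meaning is not given in the sources used here, and at P0 each of 4 prefixes was held by 1 control and 1 CKO library. Deviations of the libraries that share a prefix correlated at 0.03 to 0.67. Within the 4 prefixes the sum of the 40 genes was 1424 CPM in the control and 1309 in the CKO lung, 1544 and 1235, 2226 and 1967, and 816 and 1734. The CKO lung was thus the lower one in 3 of 4 and the higher one in the prefix of control replicate 1. With the prefix as a block the P0 median was 0.14 with 25 of 40 positive, and 0 members passed.

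**Figure D4:**
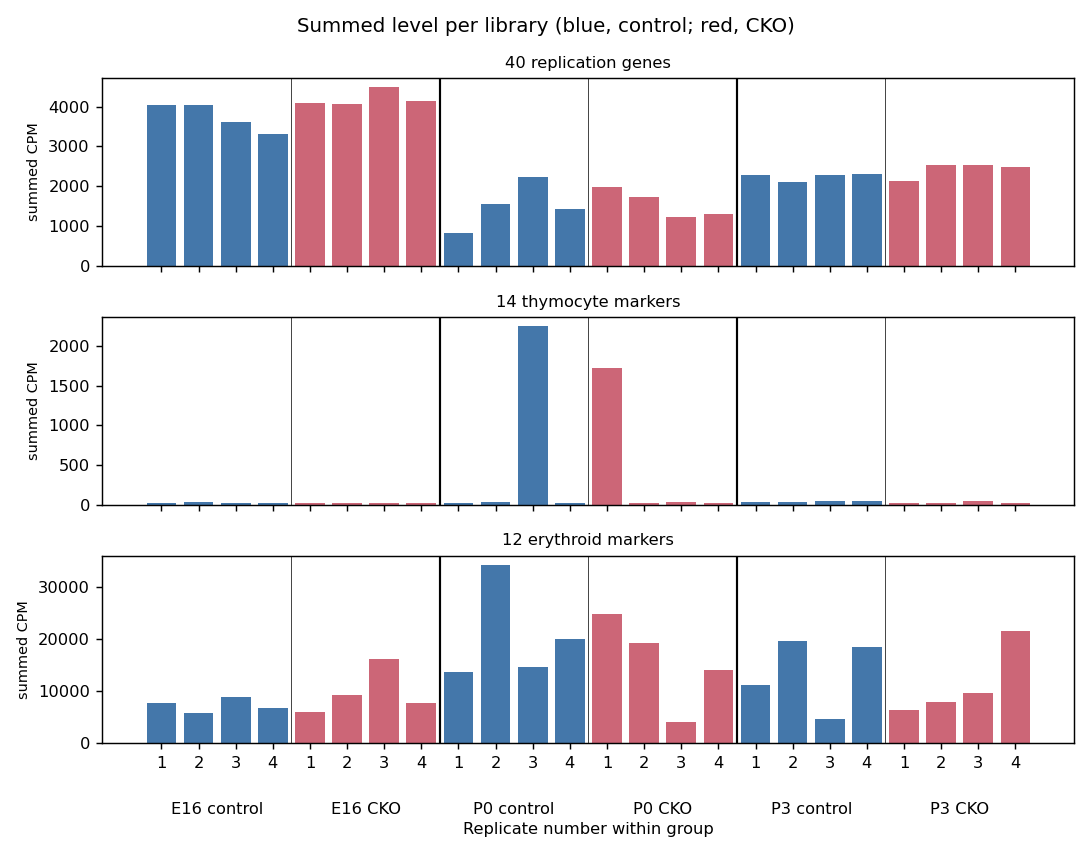
Summed CPM (vertical axes) of the 40 replication genes, of 14 thymocyte markers and of 12 erythroid markers in each of the 24 libraries (horizontal axis; blue, controls; red, CKO). Replication sums are 3300 to 4485 at E16, 816 to 2226 at P0 and 2093 to 2542 at P3, and the P0 libraries with the highest sums in each genotype are the only ones with high thymocyte bars.

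At P3 none of the 40 genes passed, against 0.0117% of 17113 genes. The median was 0.12 with 31 of 40 positive, where 47.4% of all genes were, and 7 genes had an unadjusted p under 0.05, all higher, against 8.28% of genes that were higher at that level. The groups were free of overlap for 0 of the 40, against 4.11% of all genes, and CKO replicate 1 was the lowest CKO library for 32 genes. DESeq2 called 1 of the 40, Chaf1b, as higher, where it called 2.82% of all genes as higher, and limma-voom called 0. Without CKO replicate 1, 6 genes passed as higher, namely Pola1, Chaf1b, Prim2, Gins4, Gins3 and Lig1, while the number of all genes that passed in either direction went from 2 to 1625. No share of all genes called as higher in that fit is set beside the 6.

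Chaf1b had the smallest p at P3, with 33.6, 28.7, 28.2 and 35.4 CPM in P3 controls and 33.1, 47.7, 44.9 and 49.9 CPM in P3 CKO lungs. Replicates 2 to 4 of the CKO lungs lay above every control and replicate 1 did not, at 0.48 ± 0.14 (adjusted p = 0.190, edgeR). Prim2 had 28.2, 26.4, 27.2 and 29.2 CPM in controls and 27, 41.3, 36.2 and 41.5 CPM in CKO lungs. The pattern was the same, at 0.39 ± 0.14 (adjusted p = 0.230, edgeR). Gins4, a GINS subunit also called Sld5, had 19.6, 17.9, 22.8 and 18.2 CPM in controls and 19.8, 29.4, 25.4 and 30.6 CPM in CKO lungs. Again only replicate 1 fell within the control range, at 0.42 ± 0.15 (adjusted p = 0.232, edgeR). Tk1 was the most negative, at -0.24 ± 0.17.

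**Figure D5:**
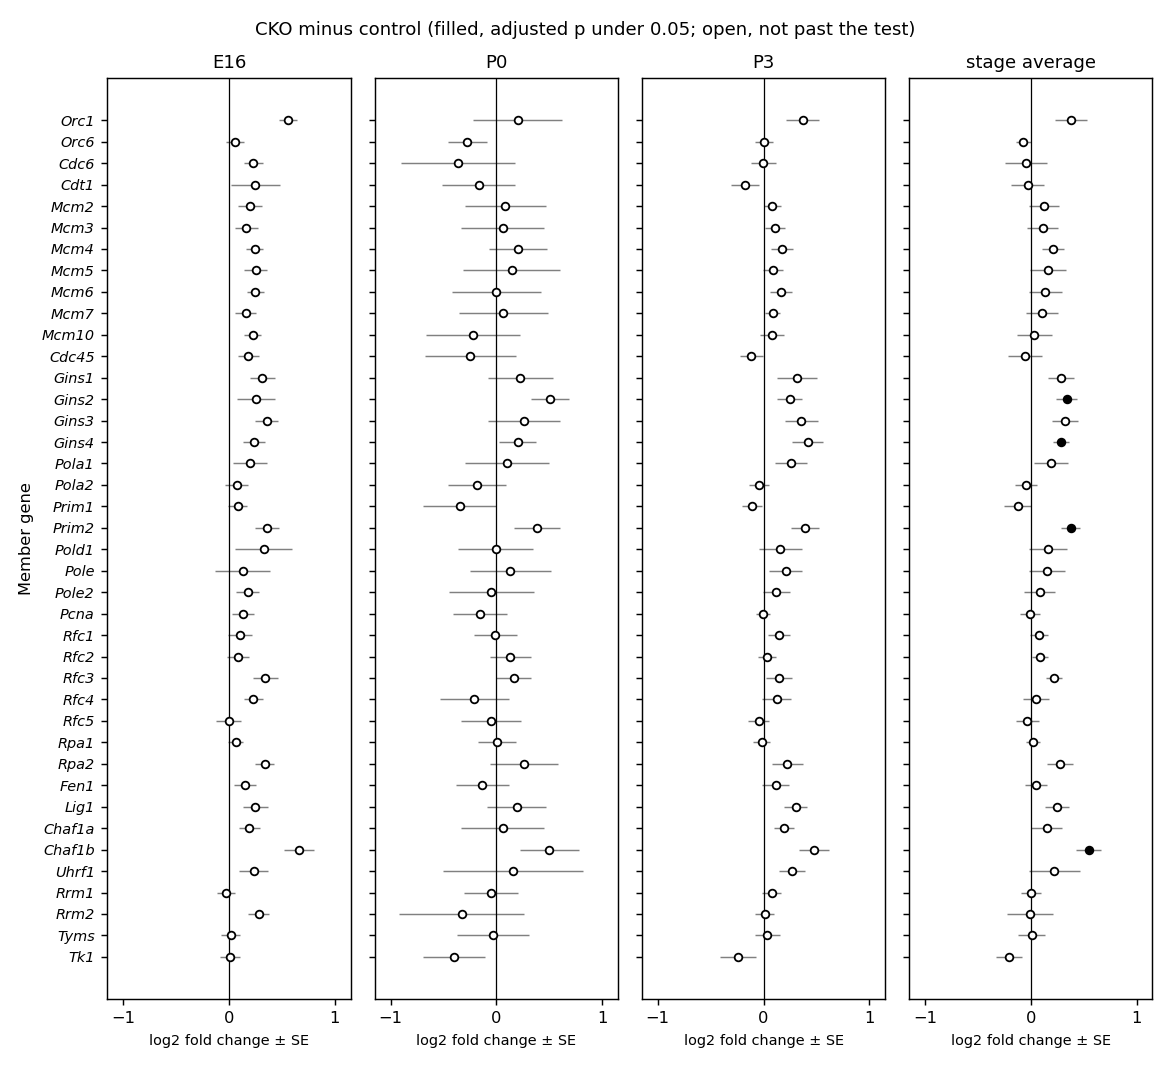
Log2 fold changes of CKO over control lungs with standard errors (horizontal axes) for the 40 replication genes (vertical axis) at E16, P0 and P3 and averaged over stages, with filled points for adjusted p under 0.05. Most E16 points lie right of 0, P0 points scatter on both sides with wide errors, and the filled points are Gins2, Gins4, Prim2 and Chaf1b in the average.

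Averaged over stages with stage as a covariate and all 24 libraries in 1 fit, 4 of the 40 genes passed, all of them higher in CKO lungs, where 8.38% of 18415 genes passed in either direction and 5.38% as higher. Chaf1b was higher by 0.55 ± 0.12 (adjusted p = 0.00498, edgeR), with its CKO mean above the control mean at all 3 stages. Prim2 had 40.5, 45.6, 36.8 and 36.6 CPM in E16 controls and 47.0, 50.9, 59.7 and 44.8 CPM in E16 CKO lungs. There only CKO replicate 4 fell below the highest control, and over the stages Prim2 was higher by 0.38 ± 0.09 (adjusted p = 0.00992, edgeR), as was Gins4 by 0.29 ± 0.08 (adjusted p = 0.0254, edgeR). Gins4 had 29.6, 32.8, 32.0 and 27.4 CPM in E16 controls and 31.6, 35.5, 42.4 and 32.7 in E16 CKO lungs, then 14.7, 16.2, 18.8 and 17.8 and 16.7, 21.1, 18.6 and 22.0 CPM at P0. Its groups overlapped at each stage, with CKO replicates mostly in the upper range. Gins2 was higher by 0.34 ± 0.10 (adjusted p = 0.0376, edgeR). The share of members that passed, 4 of 40, was near the 8.38% of all genes in either direction. All 4 were higher, where 5.38% of all genes passed as higher, and no test compared these shares. The median was 0.11 with 30 of 40 positive, where 46.1% of all genes were. Neutrophil markers moved with genotype after birth, at 217 to 246 CPM in P0 controls and 111 to 202 in P0 CKO lungs, and at 168 to 335 and 124 to 160 at P3, without overlap at either stage. Sums of the other marker lists overlapped between genotypes at each stage, and the part of neutrophils in the genotype results was not tested.

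Chaf1b and Prim2 kept their calls in all 36 alternative fits of the average. Gins2 lost its call in 14 of the 24 fits that left out a library, at adjusted p up to 0.0778, and Gins4 in 3 of them, those without E16 CKO replicate 3, P3 CKO replicate 2 and P3 CKO replicate 4, at up to 0.0581 (edgeR). The number of members called was 2 without E16 CKO replicate 3, without P3 CKO replicate 2 or with no filter on low counts, 7 without P0 control replicate 3 or without both libraries high in thymocyte markers, and 8 with the prefix of the sample identifier as a block. In these last 3 fits 5.9%, 7.16% and 8.6% of all genes passed as higher, so the count over the whole table was also above its 5.38%. The 7 were Chaf1b, Prim2, Gins1, Orc1, Gins4, Gins3 and Rfc3, and the 8 were Chaf1b, Prim2, Orc1, Rpa2, Gins4, Gins3, Gins2 and Rfc3.

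CKO means were higher at all 3 stages by fitted change for 20 of 40 genes, at 2 stages for 11, at 1 stage for 8 and at none for 1, Rfc5, where 27.3% of all genes tested at each stage were higher at all 3. The 20 became 8 without P0 control replicate 1 and 26 without both libraries high in thymocyte markers, where 26% and 27.8% of all genes were higher at all 3. No member passed a test of whether the genotype difference itself differed between stages, and 0% of 18415 genes did so in each of the 3 contrasts. At an unadjusted p under 0.05 there were 0 members as well. DESeq2 called 0 members and 16, 3 and 9 genes of the whole table for P0 against E16, P3 against P0 and P3 against E16, and limma-voom called 0 genes. The medians over the 40 genes were -0.09 for P0 against E16, with 35 of 40 negative, and 0.11 for P3 against P0, with 28 of 40 positive. Of all genes 51.8% and 51.5% were positive in these contrasts. The genes with the smallest p were Orc6 and then Rfc4, both for P0 against E16. Orc6, the smallest origin recognition subunit, had 46.5, 49.7, 45.2 and 40.1 CPM in E16 controls and 43.1, 44.5, 51.5 and 48.0 CPM in E16 CKO lungs, then 17.7, 23.1, 27.8 and 24 and 17.1, 19.9, 19.1 and 21.1 CPM at P0. The groups overlapped at both stages, with a difference of effects of -0.31 ± 0.16 (adjusted p = 1, edgeR). Rfc4, a small clamp loader subunit, had 25.8, 31.3, 30.0 and 26.9 CPM in E16 controls and 31.4, 31.3, 36.1 and 33.5 CPM in E16 CKO lungs, then 5.18, 9.62, 17.2 and 10.5 and 10.0, 10.3, 8.03 and 8.80 CPM at P0. The lowest CKO value and the highest control value touched at E16, and the CKO values lay inside the control range at P0, with a difference of -0.41 ± 0.30 (adjusted p = 1, edgeR). Without both libraries high in thymocyte markers these differences were -0.15 ± 0.15 for Orc6 and -0.11 ± 0.25 for Rfc4, and 0 members passed. The medians over the 40 genes were then -0.02 for P0 against E16 and -0.04 for P3 against P0, the latter with its sign turned. Of the 40 genes, 19 were then positive for P0 against E16 and 14 for P3 against P0.

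The changes of genes with and without an E2F word in the promoter are set side by side as a description. From E16 to P0 in controls the 14 genes with a word, such as the Mcm5, Mcm6, Orc1, Cdc6, Gins3 and Pola1 windows shown above, had a median of -1.43 and a range of -1.89 to -0.85, and the 19 without one, Chaf1b among them, had a median of -1.36 and a range of -1.90 to -0.85. The medians were -1.73 and -1.58 without both libraries high in thymocyte markers. For the genotype average the medians were 0.16, with a range of -0.04 to 0.38, and 0.01, with a range of -0.21 to 0.55, or 0.18 and 0.07 without these libraries. Of the 4 genes that passed in the average, Prim2, Gins4 and Gins2 have no promoter entry, and Chaf1b has the highest value of the genes without a word. These are descriptions over genes that share libraries, with no test.

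Other replication genes that are not among the 40, from a list of 45 that takes in further origin, polymerase, histone chaperone and nucleotide genes, mostly fell between E16 and P0. From E16 to P0 in controls 41 of 45 passed as lower and 1, Pold4, passed as higher at 0.87 ± 0.23 (adjusted p = 0.00343, edgeR), with a median of -1.07, and 17 of 45 passed as higher from P0 to P3. In the genotype average 6 passed as higher and 1 as lower. Of all 18415 genes tested, 4115 passed as lower and 4663 as higher from E16 to P0 in controls. From P0 to P3 in controls 916 passed as higher. In the average 991 passed as higher and 553 as lower, and 7.16% as higher without both libraries high in thymocyte markers. These figures hold for the lists below as well. Dctpp1, which degrades altered deoxycytidine nucleotides, had 14.4 ± 1.7 and 23.2 ± 5.7 CPM (mean ± SD, n = 4) in E16 control and CKO lungs, 6.24 ± 1.63 and 10.6 ± 2.9 at P0, and 6.77 ± 1.47 and 10.5 ± 1.0 at P3, and was higher by 0.69 ± 0.12 (adjusted p = 0.00086, edgeR). Nasp, a chaperone of histone H3 and H4, had 237 ± 23.5 and 319 ± 34.6 CPM at E16, 75.8 ± 14.1 and 110 ± 40.1 at P0, and 124 ± 7.7 and 170 ± 33.4 at P3, and was higher by 0.47 ± 0.10 (adjusted p = 0.00624, edgeR). Rnaseh2a, Mcmbp, Orc2 and Dscc1 also passed as higher and Dna2 as lower, at -0.40 ± 0.13 (adjusted p = 0.0469, edgeR). With both libraries high in thymocyte markers left out, 42 of 45 passed as lower from E16 to P0 with a median of -1.25, 32 passed as higher and 1 as lower from P0 to P3, and 7 as higher and 1 as lower in the average.

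Of 13 E2F and retinoblastoma family genes, 7 passed as lower from E16 to P0 in controls and 2, Rb1 (0.66 ± 0.15) and Tfdp2 (0.61 ± 0.16), as higher. Over all 18415 genes tested 4115 passed as lower and 4663 as higher. In the genotype average 1 passed, Rbl2, the p130 member of the retinoblastoma family. It had 60.0 ± 3.7 and 76.0 ± 9.5 CPM in E16 control and CKO lungs, 66.6 ± 15.8 and 78.8 ± 13.5 at P0, and 60.5 ± 4.6 and 83.3 ± 21.7 at P3, a change of 0.35 ± 0.10 (adjusted p = 0.0268, edgeR). E2f5, next by p, was at 0.22 ± 0.08 (adjusted p = 0.0769, edgeR). When both libraries high in thymocyte markers were left out, 7 passed as lower and 2 as higher from E16 to P0, and 4 as higher in the average.

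Mitosis genes act after S phase, and all 42 passed as lower from E16 to P0 in controls, with a median of -2.39, while 29 of 42 passed as higher from P0 to P3, with a median of 1.19. In the genotype average 0 of 42 passed and 41 of 42 were positive with a median of 0.19, where 46.1% of all genes were positive. An unadjusted p under 0.05 was reached by 4, all higher, where 2176 of all 18415 genes tested were higher at that level. Cdc25c, the phosphatase that triggers mitotic entry, had 18.9 ± 2.5 and 21.9 ± 1.2 CPM in E16 control and CKO lungs, 2.5 ± 1.62 and 4.48 ± 2.18 at P0, and 7.73 ± 1.76 and 10.1 ± 1.7 at P3, a change of 0.47 ± 0.19 (adjusted p = 0.142, edgeR). The kinesin gene Kif20a was at 0.39 ± 0.17 (adjusted p = 0.166, edgeR). Without both libraries high in thymocyte markers all 42 passed as lower from E16 to P0 and as higher from P0 to P3, with medians of -2.87 and 1.70, and 3 of 42 passed as higher in the average, with a median of 0.25.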

How the data were processed

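RNA-seq of 24 whole mouse lungs was deposited as a table of RSEM expected counts per gene, whole numbers as the authors deposited them, for 51912 genes and 27018125 to 36347041 counts per library. Per the submitters' processing notes the tools were STAR 2.5.3a, RSEM 1.3.0 and edgeR with the genome build mm10, while their roles, the annotation and the strand setting are not stated in any source used here. Reads of overlapping genes and near copies may thus be split in ways that shift a level. Replicates of a group differed by more than sampling noise (lowest chi-square per gene 20.3), and p-values set a difference against the spread between replicate libraries.

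Symbols came from the table, and positions from GENCODE M21, in which 51633 IDs matched. Counts were scaled by TMM, filtered with filterByExpr and tested with edgeR 4.0.16 (R 4.3.3) by robust quasi-likelihood fits with Benjamini-Hochberg adjustment over all genes tested, a call being adjusted p under 0.05. Genotype was fitted on the 8 libraries of each stage, stage changes and interactions on all 24 libraries in 6 groups, and the average with stage as a covariate. A standard error is the log2 fold change divided by the square root of F. The fits were run on simulated counts with the same spread for all genes and stages and no stage change, a setting unlike the P0 libraries. CPM per kilobase used the union of exons.

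Genes given in every library were the 3 with the smallest genotype p per stage and in the average, the 2 highest and 2 lowest changes of controls for E16 to P0 and P0 to P3, and the 2 with the smallest interaction p, with Cdc6 and Gins2 in CKO lungs added after their values were seen. Genes of the other lists were the 2 with the smallest p in the average, with the further called ones named after their values were seen. The members and lists were chosen with earlier results of these data known. Alternatives were DESeq2 1.42.0, limma-voom (limma 3.58.1), other scalings and filters, removal of erythroid marker genes, blocks, Xist as a covariate and libraries left out. Leaving out the P0 libraries with the lowest TMM factors was chosen after seeing the data.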

Additional observations from a re-analysis of the deposited data

Results flagged for a closer look

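Among the 240 sets of 4 libraries (40 genes in 6 groups), 8 held a library far from the other 3 by Dixon's test, and chance flags about 5% of sets. The 8 sets are fewer than that share would give, and their link to traits of the libraries was not tested. At P0, CKO replicate 1, a library high in thymocyte markers, was the high one for Cdc6 (17.68 CPM) and Mcm6 (143.8 CPM). P0 control replicate 1, the library with the lowest TMM factor, was the low one for the clamp loader genes Rfc2 (26.89 CPM) and Rfc3 (17.94 CPM), and P0 control replicate 2 the high one for Gins2 (50.15 CPM). At E16, CKO replicate 3, the library with the highest erythroid marker sum of its stage, was the high one for Rfc3 (62.09 CPM). P3 CKO replicate 1 was the low one for Rpa1 (114 CPM), which encodes the large subunit of the single-strand binding protein, and for Chaf1a (39.46 CPM).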

How the results depend on the processing

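Every fitted alternative kept the fall of the members from E16 to P0, with 37 to 40 genes called in controls and 39 or 40 in CKO lungs. Over the whole table, leaving out single libraries gave 7857 to 8898 calls in either direction for the same contrast in controls. Counts of members below stand without a share over all genes unless it is given. Without both P0 libraries high in thymus markers the median log2 change in controls was -1.62 from E16 to P0 and 0.84 from P0 to P3, with 34 genes called in the latter. Leaving out single libraries gave medians of -1.62 to -1.18 and 0.42 to 0.84, and 9 to 31 calls from P0 to P3 in controls and 15 to 25 in CKO lungs. Fits of the 8 libraries compared called 2 and 10, with no share over all genes set beside these counts. For genotype, DESeq2 called 3 members at E16 and 1 at P3, where leaving out a library gave 0 to 2 and 0 to 6. Over the whole table DESeq2 called 295, 190 and 601 genes at E16, P0 and P3, against 3, 7 and 2 with edgeR. In the average the calls were 2 with no filter, 8 with the identifier prefix as a block, 7 without both thymus libraries and 2 to 7 without single libraries. The P0 genotype median was -0.20 to 0.29 without single libraries and -0.24 without both libraries of lowest TMM factor, where the difference of genotype effects had medians of -0.38 (P0 minus E16) and 0.35 (P3 minus P0). Single libraries moved those from -0.35 to 0.12 and from -0.16 to 0.29. The sign turned for Gins2 from P0 to P3 in controls with library size only (0.0011) and without P3 control replicate 2 (0.0069; range without single libraries -0.19 to 0.0069), and for Pold1 without P0 control replicate 2 (-0.42 to 0.11 without single libraries). The causes were not tested.

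Replicate numbers did not pair the libraries, as correlations of same-numbered deviations ran from -0.47 to 0.67. By identifier prefix the correlations were -0.19 to 0.47 at E16, 0.03 to 0.67 at P0 and -0.18 to 0.22 at P3. With the replicate number as a block 4 members were called in the average, 0 at each stage, 40 and 39 from E16 to P0, and 15 and 20 from P0 to P3, in controls and CKO lungs. No share over all genes is set beside these counts. Standard errors of the members' genotype changes were 0.17 to 0.66 on the log2 scale at P0, against 0.07 to 0.27 at E16 and 0.07 to 0.21 at P3.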
